A study of Morus alba with 35 samples.

Results

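In white mulberry (Morus alba) cells, 33 of the 31401 annotated genes were near 0 in every group of control cultures and were read at a clear level after elicitation. They were chosen by level: a control group mean below 1 CPM (a gene's reads over all counted reads of the library, scaled to 1e+06) at all 6 sampling times, and an elicited group mean of at least 5 CPM at 1 or more of them. With library totals between 17191217 and 18897243 counts, 1 CPM corresponded to 17.2 to 18.9 reads and 5 CPM to 86.0 to 94.5 reads. Since the rule used the levels of both treatments, the choice fixed much of the difference between elicited and control cells, and of the course over time in elicited cells. Both are given below as a description: calls of the fit over all genes show where the members fell, and nothing is concluded from them.

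The 34 libraries came from suspension cultures grown from stem callus in the dark at 25 °C. Flasks of 8 g of washed cells from a 14-day-old suspension in 32 g of fresh medium received either 50 mM methylated β-cyclodextrin (MBCD) with 100 µM methyl jasmonate (MeJA), or only ethanol at 2.1 µL per mL, the carrier that all flasks held. Cells were collected at 0.5, 6, 12, 24, 48 and 72 h, with 2 control libraries at each time and 3 (0.5 and 6 h) or 4 (later times) elicited libraries. The effects of MBCD and MeJA cannot be told apart in these libraries, since every elicited flask held both. The labels name the cells only as suspensions from stem tissue, and the table gives no gene names by which markers of stem cells could be checked.

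Methyl jasmonate is a form of the plant defence hormone jasmonate. In Arabidopsis, the active hormone binds the receptor COI1 and leads to the breakdown of JAZ proteins, which otherwise repress MYC transcription factors and with them many defence and secondary metabolism genes. Cyclodextrins are cyclic sugars that raise the release of stilbenes, a class of phenolic defence compounds, from cultured cells such as those of grapevine, and the study concerned the mulberry stilbene oxyresveratrol. The deposited table pairs no identifier with a name or a product, so the roles of the 33 genes are not given here and genes are described by position and structure.

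A library that stood apart touched many of these genes. In elicited 48 h replicate 3, 14 of the 15 members with a 48 h mean of at least 5 CPM had their lowest value of the group, whereas this library was lowest for 34.9% of the 13157 genes at or above that level. Elicited 72 h replicate 1 was lowest for 19 of the 22 members at or above 5 CPM at 72 h, beside 25.9% of such genes. Elicited 12 h replicate 4 and elicited 24 h replicate 4 were each lowest for 14 of the 22 members that peaked at 48 or 72 h. Of all genes at or above 5 CPM at those times, 23.6% and 17.2% were lowest there. Most of the 22 members were below 5 CPM at those times. Library totals were alike, and the cause of the differences was not tested.

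Few genes silent in controls reached these levels after elicitation. In bulk RNA, a low level from few cells and little RNA per cell cannot be told apart. Of all genes, 12933 had control means below 1 CPM at all times, and 4135 of these had no read in any of the 34 libraries. The highest elicited mean of the silent genes stayed below 1 CPM in 12596, lay from 1 to 2 CPM in 240 and from 2 to 5 CPM in 64. It lay from 5 to 10 CPM in 16 members and from 10 to 50 CPM in 14, and it reached 50 CPM or more in 3. The reverse rule, elicited means below 1 CPM at all times and a control mean of at least 5 CPM at some time, held for 46 genes, 43 of which had their highest control mean at 72 h and 3 at 48 h. Their median highest control mean was 7.65 CPM, beside a median highest elicited mean of 10.9 CPM in the members, and their highest was 108 CPM, beside 254 CPM.

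**Figure D1:**
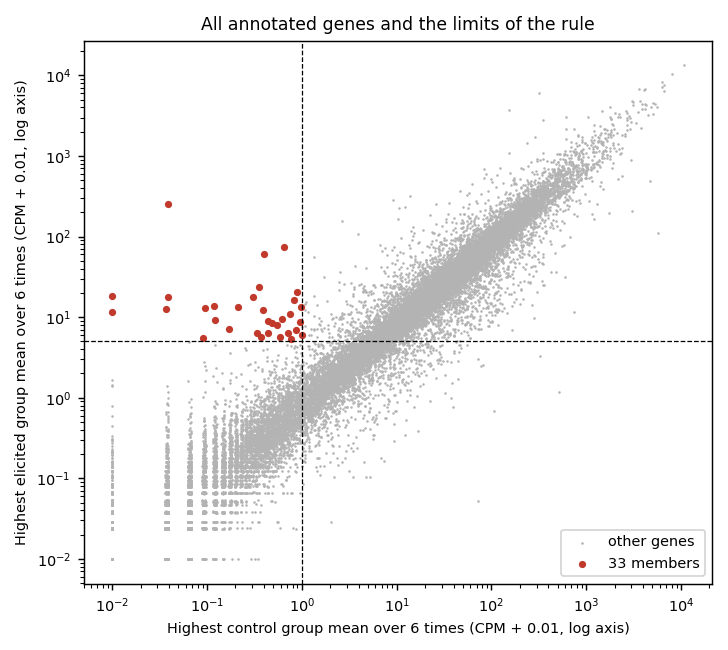
Highest control group mean (x) against highest elicited group mean (y) over the 6 times for all 31401 genes, both as CPM + 0.01 on log axes. The dashed lines mark the limits of 1 and 5 CPM, and the 33 members (red) fill the upper left corner, with 1 gene at 254 CPM far above the others near the left edge.

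The members reached their highest elicited level at different times. Most were highest late, 6 at 48 h and 16 at 72 h. A smaller set of 7 was highest at 6 h, 3 genes were highest at 0.5 h, 1 gene was highest at 24 h and none was at 12 h. Without elicited 48 h replicate 3, 9 members peaked at 48 h, 14 peaked at 72 h and 6 peaked at 6 h, and the numbers for the other times did not change. The number of members at or above 5 CPM in elicited cells was 4, 8, 3, 4, 15 and 22 from 0.5 to 72 h, and 17 at 48 h without replicate 3. There were 18 members at this level at a single time, 12 at 2 times, 1 at 3 times, 1 at 5 times and 1 at all 6.

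**Figure D2:**
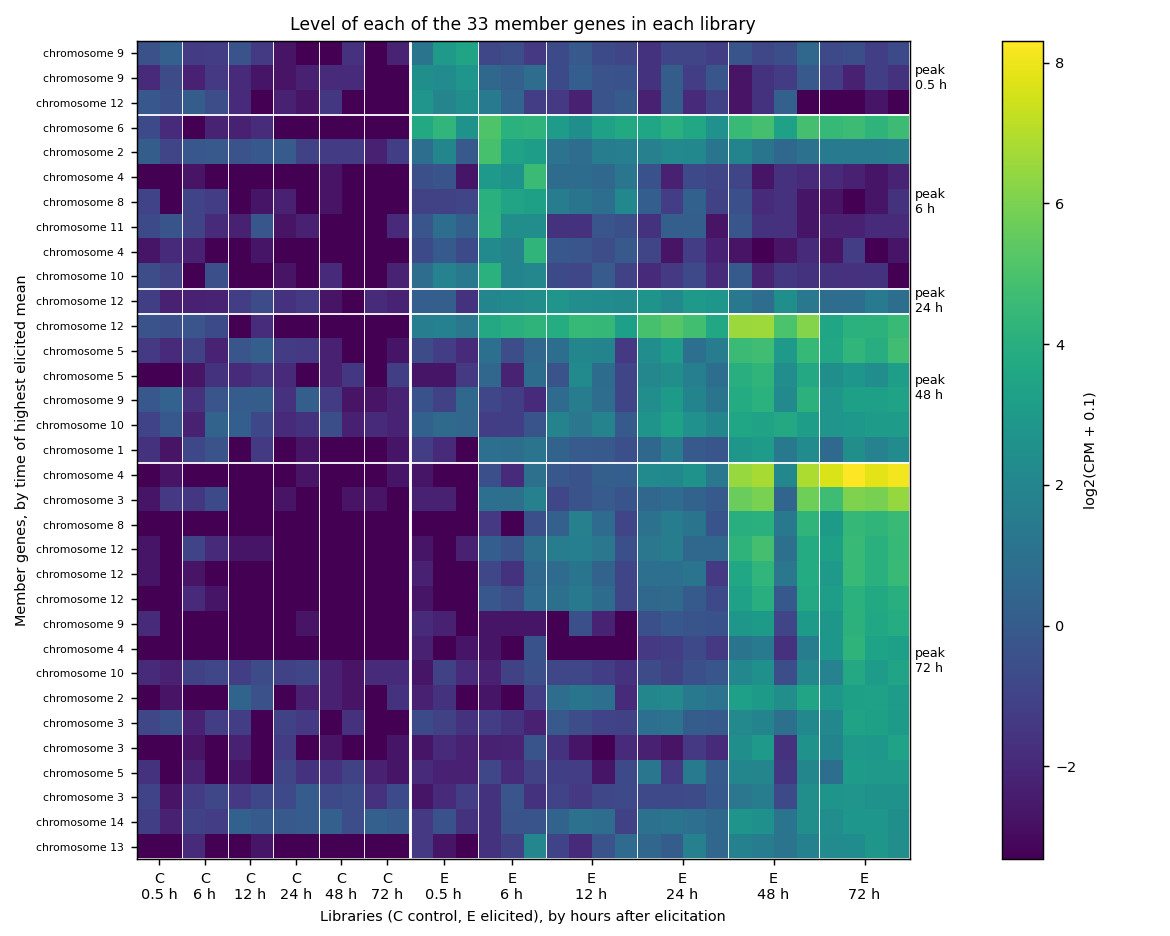
Level of each member (rows, grouped by the time of its highest elicited mean) in each of the 34 libraries (columns), as log2(CPM + 0.1). The control columns are dark throughout. Most of the 7 members highest at 6 h form a short bright block. The 22 late members brighten at 48 and 72 h, most of them less so in the column of 48 h replicate 3.

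Summed over the 33 genes, each control library held between 2.10 and 9.34 CPM. The elicited sums were 42.2, 56.9 and 41.6 CPM in the 3 libraries at 0.5 h, and 162, 90.2 and 142 CPM at 6 h. They lay between 51.1 and 75.0 CPM at 12 h and between 56.6 and 128 CPM at 24 h. At 48 h the sums were 449, 521, 111 and 459 CPM, and at 72 h they were 381, 668, 522 and 648 CPM. At each time, then, every elicited library lay above both controls, as the choice of genes requires at least in part, and replicate 3 at 48 h lay within the range of the 24 h libraries.

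**Figure D3:**
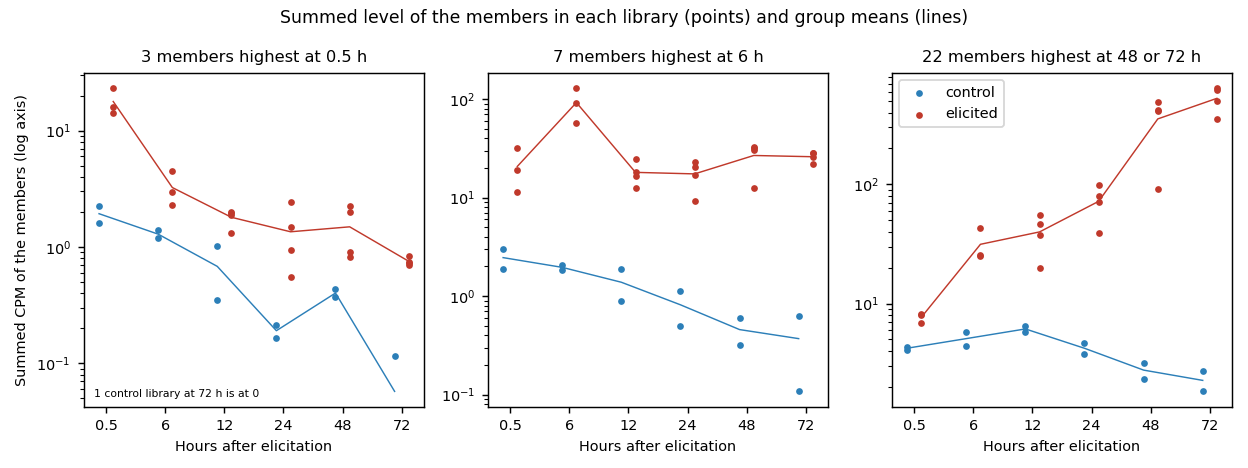
Summed CPM (log axis) of the members whose elicited mean peaks at 0.5 h, 6 h, and 48 or 72 h, by hours after elicitation, with 1 point per library and lines through the group means. The late members of the right panel lie between 1.83 and 6.42 CPM in controls and, in elicited cells at 48 h, at 415, 486 and 423 CPM with replicate 3 at 91.0 CPM.

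The calls of the differences between elicited and control cells, made with edgeR's quasi-likelihood test over 20107 genes at a Benjamini-Hochberg adjusted p below 0.05, are given only to show where the members fell. Elicited cells were called higher for 4 members at 0.5 h, where 2.34% of all genes tested were, and for 11 members at 6 h, beside 3.64% of genes. The later counts were 17 members at 12 h beside 12.8%, 26 members at 24 h beside 21.7%, 28 members at 48 h beside 26.5% and 27 members at 72 h beside 22.3%. All 33 passed the filter on low counts, which their elicited levels alone ensured, and nothing is read from these counts, since the same levels chose the genes. With a control library left out, the single control of that time is assumed to vary like the other groups. The count at 0.5 h was then 1 without control replicate 1, with 24 genes called in the whole table in place of 470. At 12 h it was 7 without control replicate 1 and 6 without control replicate 2, with 1277 and 1082 genes in place of 2577. At 24 h it was 17 and 16, with 2968 and 3051 genes in place of 4366.

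The highest member was Mal_HE_154X_1_chr004g008740, a gene of 4 exons and 1332 exon bases on the minus strand at chr4:8355690-8357963. Its control libraries held 3 reads in all, 1 each in replicate 2 at 0.5, 24 and 72 h. In elicited cells it was at or below 0.056 CPM at 0.5 h, at 0.619, 0.170 and 1.84 CPM at 6 h, and between 0.676 and 1.04 CPM at 12 h. The 4 libraries of 24 h then held 4.71, 4.24, 6.19 and 2.43 CPM. At 48 h they held 91.6, 110, 4.16 and 118 CPM, so that replicate 3 was within the range of 24 h while the other 3 were far above it. At 72 h all 4 were high, at 199, 317, 226 and 274 CPM.

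The mean at 72 h was 254 CPM, or 191 CPM per kilobase of exon, which ranked 587 among all genes by elicited mean per kilobase at 72 h. It was 9133 times the pooled control level at 72 h, and since that level rests on 1 read, its 95% counting interval runs from 1639 to 3.61e+05. The gene took between 3.75% and 25.8% of the summed member level in the 48 h libraries and between 42.2% and 52.1% at 72 h. On the log2 scale the fitted rise from 24 to 48 h was 4.23 (SE 0.56) and that from 48 to 72 h 1.58 (SE 0.47).

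Mal_HE_154X_1_chr012g011510 had the highest level at 48 h among members that peaked then. It is a single exon of 758 bases on the minus strand at chr12:12584700-12585457. Controls held 0.688 and 0.607 CPM at 0.5 h, 0.750 and 0.508 CPM at 6 h and 0 and 0.175 CPM at 12 h, and no read from 24 h on. In elicited cells it was already above both controls at 0.5 h, with 3.02, 3.34 and 2.35 CPM. It was at 12.7, 16.3 and 18.8 CPM at 6 h, between 9.42 and 21.8 CPM at 12 h and between 12.1 and 37.4 CPM at 24 h.

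At 48 h the 4 libraries of this gene held 93.9, 97.8, 31.8 and 70.4 CPM, and replicate 3 was again the lowest, within the range of 24 h. The mean of 73.5 CPM was at least 915-fold higher than in controls, with the controls set to 3 reads over the group. At 72 h the level had dropped to 11.2, 17.4, 17.6 and 23.7 CPM, below every 48 h library. Its fitted changes on the log2 scale were 2.32 (SE 0.44) from 0.5 to 6 h, 1.46 (SE 0.33) from 24 to 48 h and -2.14 (SE 0.33) from 48 to 72 h. It was the single member at or above 5 CPM at 5 times, and of the members that peaked at 48 h it alone was called to fall from 48 to 72 h.

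**Figure D4:**
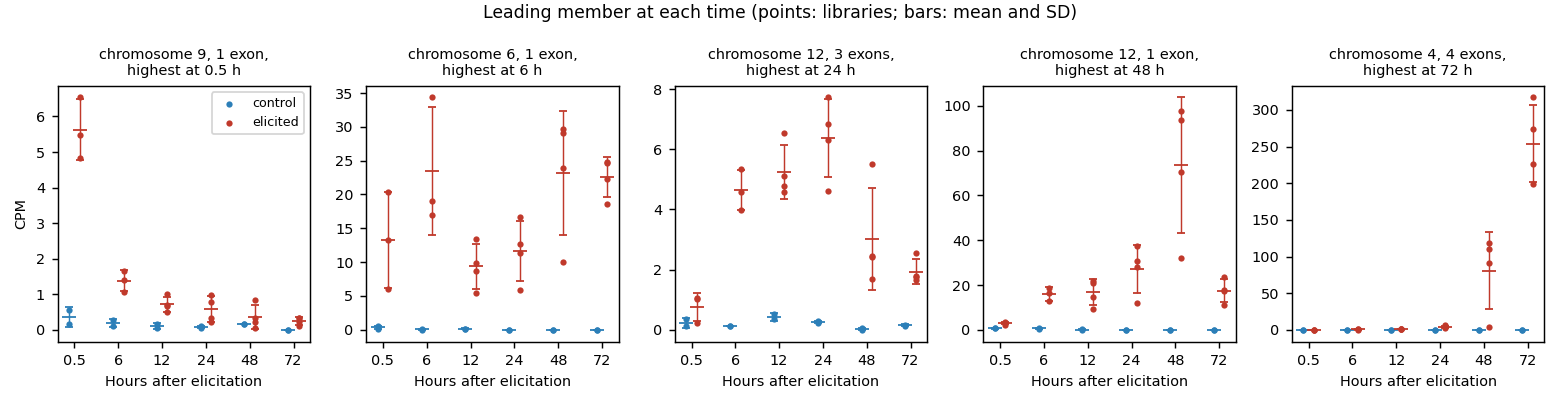
CPM of the leading member at each peak time, by hours after elicitation, each panel on its own linear axis. Leading means the highest mean among members that kept 5 CPM without their highest library. Points are libraries, and bars are the group mean and SD (n = 2 controls, 3 or 4 elicited). Controls stay near 0 in all 5 panels, and 1 elicited point at 48 h lies well below the other 3 in the panels of the 6 h, 48 h and 72 h genes.

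Most of the 22 late members were below 5 CPM for the first day, the 2 exceptions being Mal_HE_154X_1_chr012g011510, from 6 h on, and the gene at chr10:8233551-8236842, with a mean of 6.47 CPM at 24 h. Their median elicited mean was 0.121, 0.505, 1.10 and 1.62 CPM at the first 4 times, up to 24 h, and then 9.09 CPM at 48 h and 8.98 CPM at 72 h. At 24 h 20 of them were still below 5 CPM, 14 reached it at 48 h, 21 reached it at 72 h and 13 did at both. In single 48 h libraries, 16, 17, 5 and 16 of them were at or above 5 CPM. In 20 of the 22, all 3 libraries other than replicate 3 lay above every 24 h library, which held for 11.3% of the genes tested. The members were chosen for such levels and replicate 3 was set aside after its values were seen, so this count is a description. In 18 of the 22 replicate 3 lay at or below the highest 24 h library, a count that was not made over all genes.

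The other 5 members that peaked at 48 h had means of 5.70 to 20.3 CPM there. The highest of them, of 10 exons at chr5:832240-838426, held 24.6, 27.0, 7.50 and 21.9 CPM at 48 h and 12.4, 20.1, 15.2 and 26.8 CPM at 72 h, and the 2 times overlapped. The gene of 8 exons at chr10:8233551-8236842 was the late member whose lowest 48 h library was not replicate 3, with 11.6, 10.2, 12.8 and 8.99 CPM. It also had a level in controls that reached 1.19 CPM in 1 library of 6 h and 1.01 CPM in 1 of 12 h.

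Of the 16 members that peaked at 72 h, 4 had every 72 h library above every 48 h library, as had 14.9% of the genes tested. The 4 are named because of that value, and Mal_HE_154X_1_chr004g008740 was one of them. The gene at chr4:17189652-17191726 held 2.10, 2.60, 0.216 and 2.85 CPM at 48 h and 6.85 to 18.9 CPM at 72 h. The gene of 3 exons at chr3:19765742-19767627 held 2.32, 2.94, 0.486 and 5.19 CPM at 48 h and 6.47, 6.58, 6.00 and 6.00 CPM at 72 h. The fourth, of 7 exons at chr13:6011400-6014847, held 3.31, 2.83, 2.16 and 3.35 CPM at 48 h and 4.81, 4.95, 6.96 and 5.26 CPM at 72 h.

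Across all 33 members 18 were called to rise from 24 to 48 h, all of them late members, and 1 to fall, in an interval in which 2.04% of genes tested rose and 1.48% fell. The level changed over time in elicited cells for all 33 by an F test, as it did for 84.9% of genes. Choosing genes for a high elicited mean at some time favours such changes, so these counts are a description. The number called varied with single libraries: it was 11 without 24 h replicate 3, 10 without 24 h replicate 4, and 11, 9 and 11 without 48 h replicates 1, 2 and 4. Under these settings the calls over all genes were 141, 144, 120, 88 and 115 in place of 411, and the members that rose at an unadjusted p below 0.05 were 22, 20, 20, 22 and 21, beside 22 with all libraries. The called rises numbered 20 without 48 h replicate 3 and 0 with the spread estimated from these 8 libraries alone, where edgeR called no gene of the whole table, although 20 members rose at an unadjusted p below 0.05, and DESeq2 over all libraries called 16. The 1 fall was lost without any of 24 h replicates 1, 3 and 4 or 48 h replicates 1, 2 and 4.

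From 48 to 72 h 5 members were called to rise and 1 to fall, beside 6.72% and 5.83% of genes. The rises numbered 2 without 48 h replicate 3, 1 without 48 h replicate 1 or 72 h replicate 2, 3 without 48 h replicate 2, and 2 without 72 h replicate 3 or 4. There were 2 falls without 48 h replicate 4. These counts too lie next to the peaks that the rule used.

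The early steps of the late members do not border their peaks, but the rule and the peak time use the means at all 6 times, so these steps too are a description. Between 0.5 and 6 h 8 of the 22 late members were called to rise and 1 to fall in elicited cells, while 23.1% of all genes tested rose and 29.2% fell. The late members passed the filter on low counts through their later groups: with only the 0.5 and 6 h groups fitted, 19 of the 33 members were tested and 6 late members were called to rise. For 7 of the 8 the 6 h mean was still below 5 CPM. The 8 means lay between 0.689 and 15.9 CPM and the fitted rises between 2.32 and 5.19 on the log2 scale. The count was 4 without elicited 6 h replicate 3, and between 6 and 8 when any other single library of either time was left out. The single fall, of the gene at chr10:8233551-8236842 (log2 change -1.62, SE 0.60), was not called without 0.5 h replicate 2 or 3 or 6 h replicate 1 or 2. Against controls at 6 h, 2 of the 22 late members were called higher, both among the 8 that rose, beside 3.64% of genes tested. Changes over this step in controls were not tested, so the rises are not set apart from a change shared with controls.

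All 3 genes of a close group on chromosome 12 and 1 gene of a pair on chromosome 3, both described below, were among the 8. The gene at chr3:3892985-3899855 held 0.112, 0.111 and 0 CPM at 0.5 h and 1.80, 1.87 and 3.23 CPM at 6 h, so the groups did not overlap (log2 change 4.71, SE 1.41). The gene at chr1:924052-926043 had a log2 change of 3.32 (SE 0.76), from 0.336, 0.167 and 0 CPM to 1.80, 1.76 and 2.11 CPM. Mal_HE_154X_1_chr004g008740 was not called at this step (log2 change 5.05, SE 2.44), with 1 read in the 3 libraries of 0.5 h.

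From 6 to 12 h 4 members were called to rise, all late, beside 23.4% of genes; the count was 2 without 12 h replicate 2 and 7 without 12 h replicate 4 and 48 h replicate 3 together. From 12 to 24 h 3 late members were called to rise, beside 4.99% of genes. That count was 1 without 12 h replicate 1 or 3 or 24 h replicate 2, and 0 without 12 h replicate 4 or 24 h replicate 1, where 7 and 6 members rose at an unadjusted p below 0.05 in edgeR. DESeq2 called 5. Neither step between 6 and 24 h was called for most of the late members.

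Most of the 7 members highest at 6 h were on briefly. The median elicited mean of the 7 was 1.17 CPM at 0.5 h and 12.4 CPM at 6 h. At the 4 later times it was 1.73, 0.593, 0.318 and 0.140 CPM. By 12 h 6 of the 7 were below 5 CPM, and 5 were below 1 CPM at both 48 and 72 h. Of the 4 falls called from 0.5 to 6 h (29.2% of genes) none was theirs, 6 of the 15 rises called then (23.1% of genes) were, and all 7 were called to fall from 6 to 12 h, where 8 members and 20.3% of genes were. The 4 falls numbered 2 without 6 h replicate 2. These steps border their peak and are a description.

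The libraries of 6 h did not agree on the height of the peak. Replicate 1 was highest for 5 of the 7 genes and replicate 3 for the other 2, which are the neighbouring pair on chromosome 4. These counts were not made over all genes. Of the 12916 genes with a 6 h elicited mean of at least 5 CPM, 52.9% had their lowest value in replicate 1, so this library differed more widely. The gene at chr11:16004973-16006553, for example, held 17.8, 5.33 and 5.34 CPM, and that at chr10:13562659-13564380 held 17.3, 3.74 and 4.12 CPM. In both, replicate 1 was more than the sum of the other 2.

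The later steps of this set are a description as well, since a peak at 6 h sets a limit to the later means. From 12 to 24 h 2 of the 7 were called to fall, beside 5.4% of genes. They were the gene at chr4:1472261-1475050 (log2 change -2.04, SE 0.52) and the gene at chr8:2964027-2966056 (log2 change -1.99, SE 0.45). The latter held 16.5, 10.9 and 9.79 CPM at 6 h, 2.81, 2.20, 1.73 and 4.24 CPM at 12 h and 0.997, 0.331, 1.11 and 0.386 CPM at 24 h, with no overlap between the 3 times. None of the 7 was called at either step after 24 h.

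The gene at chr2:7692330-7696232, of the 6 h set, stayed above controls after its pulse. Its elicited means were 2.41, 3.52, 2.30 and 2.74 CPM at 12, 24, 48 and 72 h. Its control means were 0.745, 0.652, 0.321 and 0.226 CPM at those times. The leading 6 h member departed most from the short pulse. It is a single exon of 1655 bases on the minus strand at chr6:1671777-1673431, and it alone was at or above 5 CPM at all 6 times. Controls held 0.516 and 0.165 CPM at 0.5 h, 0 and 0.113 CPM at 6 h, 0.113 and 0.175 CPM at 12 h and no read later. Elicited cells held 13.3, 20.4 and 6.09 CPM already at 0.5 h, and 34.4, 17.0 and 19.1 CPM at 6 h.

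This gene then lay between 5.47 and 13.5 CPM at 12 h and between 5.85 and 16.6 CPM at 24 h. It held 23.9, 29.8, 10.04 and 29.1 CPM at 48 h and 22.3, 24.7, 18.6 and 24.8 CPM at 72 h. The 6 h and 48 h libraries overlapped, and without 48 h replicate 3 its highest mean moved from 6 to 48 h. Its step from 24 to 48 h was not called (log2 change 1.01, SE 0.35).

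The 3 members highest at 0.5 h had means there of 5.29 to 6.88 CPM, and of 0.432 to 1.43 CPM by 6 h. The one with the highest level among those that kept 5 CPM without their highest library was a single exon of 636 bases on the plus strand at chr9:14004107-14004742. It held 5.49, 4.84 and 6.54 CPM in elicited cells and 0.172 and 0.551 CPM in controls at 0.5 h, and 1.41, 1.08 and 1.67 CPM in elicited cells at 6 h, a log2 change of -2.15 (SE 0.44). From 6 h on no step was called for any of the 3. For all 3 the control level was not 0 either, with 33 to 67 reads over the 12 control libraries.

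The 1 member highest at 24 h, 3 exons on the minus strand at chr12:15594533-15596114, had a broad plateau. It was at 1.01, 1.06 and 0.223 CPM at 0.5 h and at 3.99, 4.59 and 5.34 CPM at 6 h (log2 change 2.47, SE 0.39). The 12 h libraries held 6.55, 5.13, 4.78 and 4.57 CPM and the 24 h libraries 6.32, 4.63, 7.74 and 6.84 CPM, which overlapped. At 48 h it held 2.43, 1.70, 5.51 and 2.46 CPM, so here replicate 3 was the high one, again within the range of 24 h.

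Levels in controls were low but mostly not 0. The median member had 33 reads over the 12 control libraries and the highest 156, while 9 members had 10 or fewer. Only 2 had no control read at all, and both are named here because of that value. The gene at chr8:5432396-5435457, of 8 exons, held 15.8, 16.3, 2.48 and 19.2 CPM at 48 h and 7.96, 21.1, 19.6 and 23.5 CPM at 72 h in elicited cells, at least 217-fold higher than controls at 72 h. The gene at chr4:17189652-17191726, of 3 exons, held 6.85, 18.9, 10.6 and 9.48 CPM at 72 h, at least 137-fold higher.

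Observed control means were not the same at all sampling times, but a change over time in controls was not tested. The control mean was highest at 0.5 h in 13 members, at 6 h in 8 members, at 12 h in 7 members, at 24 h in 3 members and at 48 and 72 h in 1 member each. The 13 include the 2 members with no control read, which have no highest time and were counted at the first. The control mean was lower at 72 h than at 0.5 h in 21 members and higher in 7. The median control mean was 0.167 CPM at 0.5 h and 0.029 CPM at 72 h, and 10 members had no control read at the time at which they were highest in elicited cells. Control levels rest on few reads, and no share over all genes is given beside these counts. The rule also limits these levels, so they are given only as a description.

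The rule was also applied with 1 control library left out at a time, as a description. Then 31 to 37 genes met it. In the left-out library they were below 1 CPM in 376 of 398 cases, the highest value being 2.54 CPM. The other control libraries, 1 of them of the same time, still set the limit, so low values were likely beforehand. The cases count mostly the same genes again for each library. Elicited libraries differed more. With 48 h replicate 3 left out, 34 genes met the rule, and of 18 that were on at 48 h in the other libraries 6 were at or above 5 CPM in it. With 48 h replicates 1, 2 and 4 left out in turn, these were 15 of 15, 14 of 14 and 14 of 15, and with 72 h replicate 1 left out 17 of 24.

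How near a gene came to the limits is shown by those on either side. Just inside the elicited minimum were the members at chr12:14568783-14570242, with 5.29 CPM at 0.5 h, and chr13:6011400-6014847, with 5.49 CPM at 72 h. Just outside were the genes at chr1:1156237-1157911, with 4.90 CPM at 6 h, and chr7:2156045-2156998, with 4.52 CPM at 6 h. In all 11 silent genes lay from 4 to 5 CPM, and 4 members from 5 to 6 CPM.

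Just inside the control limit were the members at chr14:12135414-12137513, whose control mean was 0.9997 CPM at 12 h, and chr9:85290-86785, with 0.980 CPM at 0.5 h. Just outside were the genes at chr1:905074-907274, with a control mean of 1.01 CPM and 7.61 CPM in elicited cells at 48 h, and chr5:16101866-16105469, with 1.06 CPM and 12.2 CPM. In all 30 genes had a highest control mean from 1 to 2 CPM and an elicited mean of at least 5 CPM, so the limit of 1 CPM falls in a continuous range. For 20 members every library at the peak time was at or above 5 CPM, and 5 fell below it without their highest library.

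Per kilobase of exon, the members' highest elicited means ranged from 2.88 to 191 CPM. Each member was ranked among all genes by the elicited mean per kilobase at its own peak time. The ranks ran from 587 to 13893 with a median of 10244, and 3 members were within the first 5000.

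Structure and position, which the rule did not use directly, were compared with other genes as a description. CPM is not scaled to exon length, so length bears on which genes meet the limits and is not independent of the rule. The members had a median of 4 exons and 1491 exon bases, beside 4 and 1272 for all annotated genes and 3 and 810 for the 12933 genes silent in controls. Single-exon genes made up 7 of 33 (21.2%), beside 18.2% of all genes and 23.0% of the silent ones. No member shared exon bases with another gene. They lay on 13 chromosomes, with 6 on chromosome 12 (18.2% of members, 5.26% of genes), 4 each on chromosomes 3, 4 and 9, 1 on chromosome 1 (3.03%, where 14.7% of genes lie) and none on chromosome 7.

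A set of 7 members lay close together, within 5 gene places of each other, in 3 groups. The exon lengths within each group were partly identical, so that reads could be shared between copies, and the treatment of multi-mapping reads is not given in the sources used here. The split of reads within each group is therefore uncertain.

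**Figure D5:**
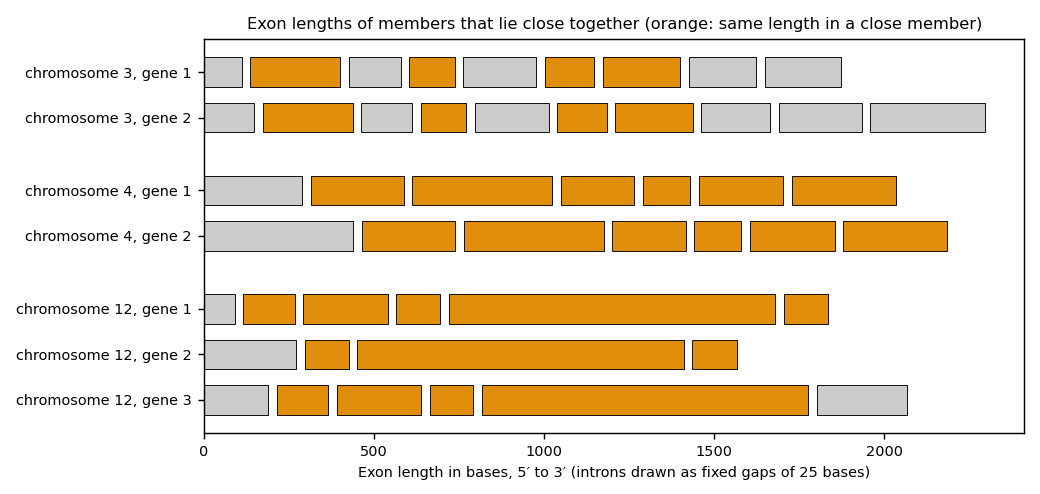
Exon lengths in bases, 5′ to 3′, of the 7 members that lie close together, with introns replaced by fixed gaps. Orange exons have the same length as an exon of another member of the group: 4 per gene on chromosome 3, 6 per gene on chromosome 4, and on chromosome 12 the exon of 960 bases and its neighbour of 129 bases in all 3 genes.

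The group of 3 on chromosome 12 lay on the plus strand at chr12:2034818-2037641, chr12:2062557-2065274 and chr12:2082699-2086332, with 6, 4 and 6 exons. All 3 had an exon of 129 bases followed by one of 960 bases, and the 2 outer genes also shared exons of 152 and 248 bases. At 48 h they held 12.6, 20.2, 2.32 and 14.2 CPM, 9.89, 15.7, 0.810 and 12.8 CPM, and 18.9, 29.4, 1.89 and 14.2 CPM in replicates 1 to 4. Replicate 3 was lowest in all 3 genes.

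At 72 h the same genes held 7.46 to 23.5 CPM, 9.18 to 17.0 CPM and 9.78 to 23.2 CPM, with replicate 1 lowest in each. Controls held 2, 4 and 14 reads over 12 libraries, and none at 72 h. The fitted changes from 0.5 to 6 h were 3.89 (SE 1.62), 5.19 (SE 1.63) and 4.15 (SE 1.34) on the log2 scale. They are imprecise, since the elicited 0.5 h libraries held 2, 0 and 0 reads of the first gene. Of the second they held 1, 0 and 0 reads, and of the third 1, 0 and 2. The gene between the first and the second, at chr12:2044488-2049157, was near 1 CPM in both treatments, with 1.23 CPM in controls and 1.23 CPM in elicited cells at 72 h, and was not called at 48 h (log2 fold change -0.21, SE 0.36). The gene that follows the group, at chr12:2109084-2111724 on the minus strand, had means of 67.8 CPM in elicited cells and 3.88 CPM in controls at 48 h (log2 fold change 4.32, SE 0.46, adjusted p = 7.96e-09 with edgeR). In controls its mean was 47.5 CPM at 0.5 h, so it was not silent there. Both genes were named after their values were seen.

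The chromosome 3 pair lay on the minus strand at chr3:3877541-3884774 and chr3:3892985-3899855, 8210 bases apart, with 9 and 10 exons. They shared exon lengths of 264, 134, 146 and 228 bases at the same places in the order. At 72 h the second gene had 29.0 CPM per kilobase of exon and the first 4.31. The second held 50.6, 63.1, 1.30 and 54.0 CPM at 48 h and 25.9, 65.9, 60.1 and 88.8 CPM at 72 h. The first held 5.47, 7.69, 0.216 and 5.97 CPM at 48 h and 3.70, 7.50, 7.19 and 10.5 CPM at 72 h, and at each time the 4 libraries stood in the same order in both genes. The genes on either side of the pair, at chr3:3823674-3872988 and chr3:3926963-3930192, were also higher in elicited cells at 48 h, by 2.48 (SE 0.65, adjusted p = 0.00208) and 2.26 (SE 0.25, adjusted p = 1.15e-08) on the log2 scale with edgeR. The first of them was low, with means of 0.916 CPM in elicited cells and 0.189 CPM in controls. They too were named after their values were seen.

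The chromosome 4 pair, at chr4:1472261-1475050 on the minus strand and chr4:1482245-1485183 on the plus strand, lay 7194 bases apart and had 7 exons each, of which the last 6 had the same lengths (274, 412, 216, 139, 249 and 306 bases). Both belonged to the 6 h set. They held 7.82, 6.24 and 24.1 CPM, and 4.44, 3.57 and 19.5 CPM, at 6 h, with replicate 3 highest in both. By 12 h they were at 1.38 to 2.29 CPM and 0.576 to 0.836 CPM. Controls held 2 and 7 reads over 12 libraries.

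Another gene of this layout, with 7 exons at chr4:1497600-1500556, shared a run of 6 exon lengths with the first of the pair and was no member: its highest elicited mean was 1.15 CPM and its highest control mean 0.029 CPM. It was named after its values were seen. The gene between the pair, at chr4:1476257-1480522, had a highest elicited mean of 0.638 CPM.

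Many members had another gene of similar exon layout. Of the 22 members with at least 3 exons, 13 (59.1%) had another gene anywhere in the table with a run of 3 consecutive exons of the same lengths, beside 26.4% of the 20556 annotated genes and 31.7% of the tested genes with at least 3 exons. In 5 of the 13 that other gene was itself a member. The 53 other genes with such a run, which were not members, differed among themselves: 29 had a control mean of at least 1 CPM at some time, 19 had an elicited mean of at least 5 CPM, and 20 stayed below 1 CPM in every group. One of them, next to the member at chr5:16118211-16122212, was the gene at chr5:16101866-16105469 just outside the control limit.

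Genes next to the members were tested at 48 h. Adjacent genes that met the rule themselves were left out of the neighbours, whereas all genes tested include the members. Of the 60 immediate neighbours that were not members, 42 passed the filter on low counts. Elicited cells were higher for 15 (35.7%) and lower for 10 (edgeR, adjusted p below 0.05), beside 26.5% of all genes tested that were higher. The share called lower was 23.8% of neighbours and 25.1% of all genes. Their median log2 fold change was 0.24, beside -0.01 for all genes tested. With libraries scaled by their totals alone 19.0% of neighbours and 19.0% of all genes were higher. Among the 17 tested neighbours within 5 kb of a member 5 were higher under TMM scaling, and the difference between their share and that of all genes was not tested.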

How the data were processed

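RNA sequencing of 34 Morus alba libraries was used, and a pooled long-read sample was not analysed here. The authors deposited 1 table of raw counts (whole numbers, not normalized) for 31401 genes, with the coordinates of their exons. Per the submitters' processing notes the authors used fastp, STAR and featureCounts. Versions, settings, the build, strand use and multi-mapping are not given in the sources used. The library kit kept strand, per the labels' protocols. Coordinates were taken from that table and are 1-based. Every column was matched to its sample by its label, and 0 columns were without a sample.

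CPM was count over column total. Members and lists were chosen with earlier results of these data known. Planned gene lists were not run, since no identifier carries a name. Identifiers are printed for the 2 members with the highest elicited mean among those that keep 5 CPM without their highest library. The leading member of each peak time under the same condition, the genes nearest each limit and close members are given by position.

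Tests used R 4.3.3 and edgeR 4.0.16: filterByExpr with a minimum count of 10, TMM scaling, and 1 quasi-likelihood model (glmQLFit, glmQLFTest) with 12 group means over all 34 libraries. Benjamini-Hochberg adjustment ran over all 20107 genes kept, within each contrast, with calls below 0.05. Standard errors (SE) were obtained by dividing the log2 fold change, without its sign, by the root of the F statistic. DESeq2 1.42.0, other scalings, no filter, fits of the groups compared alone, replicate blocks and leaving out each library were alternatives, and leaving out elicited 48 h replicate 3 with elicited 12 h replicate 4 was added after seeing the data.

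Library totals were 17191217 to 18897243 counts. Folds against a control group with no read used a floor of 3 counts over the group, and those against 1 to 3 reads carry a 95% exact Poisson interval. Intervals and floors cover counting error only. Replicates were separate flasks per the labels, while no source says whether the parent suspension was shared, so p-values reflect variation among flasks and may be technical. In the 36 pairs of libraries of the same group, chi-square per degree of freedom was 2.79 to 94.7, so each library was counted as 1 replicate.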

Additional observations from a re-analysis of the deposited data

Results flagged for a closer look

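In 76 groups of 4 libraries, 4 had a highest or lowest library further from the others than Dixon's 95% limit allows, and chance gives such a value in about 1 in 20 groups. The summed level of the 7 members highest at 6 h was 12.4 CPM in elicited 48 h replicate 3 and 30.3 to 32.5 CPM in the other 48 h libraries. The member at chr13:6011400-6014847 held 3.20 CPM in elicited 24 h replicate 3 and 0.992 to 1.33 CPM in the others. The member at chr12:15594533-15596114 held 2.55 CPM in elicited 72 h replicate 3, beside 1.66 to 1.77 CPM. The member at chr12:14568783-14570242 held 0.0566 CPM, 1 read, in elicited 72 h replicate 3 and no read in the others.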

How the results depend on the processing

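Of 350 alternative values, 298 kept their value within the limit used and 52 moved, 17 of them in alternatives other than leaving out 1 library. The number of members depended on the limits: it was 20 with controls below 0.5 CPM, 63 below 2 CPM, 97 with at least 2 CPM in elicited cells and 17 with at least 10 CPM, and between 31 and 37 with any 1 library left out. TMM scaling gave 36, of which 32 were shared, and group medians gave 34, of which 31 were shared. Rises called from 12 to 24 h were 5 with DESeq2 and 1 with only the groups compared, and rises from 6 to 12 h were 7 without the pair of libraries that stood apart (12 h replicate 4 and 48 h replicate 3, both elicited). Rises and falls from 24 to 48 h were 0 and 0 with only the groups compared, where edgeR called no gene at all and 20 and 1 members passed an unadjusted p of 0.05. DESeq2 gave 16 such rises. From 48 to 72 h rises were 2 with DESeq2, 3 with only the groups compared and 2 without both libraries, and falls were 2, 3 and 2. The share of neighbours higher at 48 h was 19.0% with library size alone, as was the share of all genes. With 1 library left out, calls higher in elicited cells ranged from 1 to 5 at 0.5 h, 6 to 17 at 12 h and 16 to 27 at 24 h. Falls from 0.5 to 6 h ranged from 2 to 4, rises from 6 to 12 h from 2 to 5, rises from 12 to 24 h from 0 to 3, rises from 24 to 48 h from 9 to 20, falls then from 0 to 1, rises from 48 to 72 h from 1 to 4 and falls then from 1 to 2. For the late members, rises from 0.5 to 6 h ranged from 4 to 8 and falls from 0 to 1. The cause of these shifts was not tested. Libraries with the same replicate number showed weak correlations at most. Deviations of control and elicited libraries with the same title number correlated at -0.0884 to 0.141 over 12 pairs, 2 of them over 0.1. Those with the same flask number correlated at -0.124 to 0.0746 over 10 pairs. Elicited libraries of consecutive times with the same number correlated at -0.191 to 0.192 over 18 pairs, 4 of them over 0.1. The deviations of the 2 controls of a time mirror each other, so the control pairs are not independent. The check cannot show that the libraries were unpaired. With a replicate block of flask numbers 7 members were called higher at 0.5 h, and with title numbers 3. At 5 CPM a library holds at least 86.0 reads of a gene, whereas control levels rest on few reads, so folds against controls are imprecise.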
